A study of Drosophila melanogaster with 2 samples.

Results

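The proteasome subunit genes of Drosophila melanogaster were examined for summits of chromatin immunoprecipitation (ChIP) signal at their promoters. Members were the protein-coding genes whose symbol begins with Prosalpha, Prosbeta, Rpn or Rpt followed by a digit, which gave 48 of 13945 annotated protein-coding genes. They comprised 14 subunits of the core particle, 18 subunits of the regulatory particle and 16 paralogues whose symbol goes on with T or R after the digit. A gene was counted as having a promoter summit when the highest point of a peak lay within 500 bp of any of its annotated start sites. This choice used symbols and not measured values.

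The proteasome degrades proteins that carry ubiquitin chains. Its core particle is a barrel of alpha rings, which gate the entry, and beta rings, which hold the protease sites on Prosbeta1, Prosbeta2 and Prosbeta5. The regulatory particle caps the barrel: its base unfolds substrates with the Rpt ATPases, its lid removes ubiquitin through Rpn11, and Rpn1, Rpn10 and Rpn13 are its ubiquitin receptors, roles worked out largely in yeast and mammals. The T paralogues of the alpha subunits are known from fly testis, where they stand in for the standard subunits.

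Chromatin of whole prepupae, males and females mixed and of age unknown, had been precipitated with an antibody against GFP and sequenced. The flies were of 1 transgenic strain, CG6854-GFP, in which GFP was fused to the C terminus of the CG6854 product, and the labels name the target as CTPsyn. Both libraries, biological replicates 2 and 3, belong to this 1 group, control libraries were not used here, and no comparison between conditions was possible. The labels do not state which promoter drove the fusion or in which cells, and a whole animal mixes all its tissues. In the reference table CG6854 is a former name of Ctps, which encodes CTP synthase, and of CG45071 as well.

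The deposited lists gave 30000 relaxed summits for each replicate and for the pooled reads, and 5703 summits in the list that passed the irreproducible discovery rate (IDR) step. These 5703 were exactly the 5703 strongest summits of the pooled list, so a place in the IDR list is here a threshold on pooled signal and not a separate agreement of the replicates at each site. Signal is the authors' score per peak, whose scale is not stated; it ran from 136.3 to 2488 in the IDR list with a median of 200.1. Depth per library is unknown. Shares carry 95% Wilson intervals, which treat genes as independent and cover counting error only.

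In the IDR list 8 of the 48 proteasome genes had a promoter summit, a share of 16.7% (95% interval 8.70 to 29.6%), where 20.0% of all protein-coding genes had one. The count was 2 of 14 for the core particle (14.3%, 4.01 to 39.9%), 6 of 18 for the regulatory particle (33.3%, 16.3 to 56.3%) and 0 of 16 for the T and R paralogues, which allows a share of up to 19.4% by the same interval. The intervals of the members and of both particles contain the background of 20.0%. The summits were of moderate strength: the median signal of the 8 genes was 165.2, with a range of 139.8 to 210.8, where the median over all 2785 genes with an IDR promoter summit was 212.5. Each of the 8 had 1 IDR promoter summit, whereas 425 of the 2785 had more than 1.

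**Figure D1:**
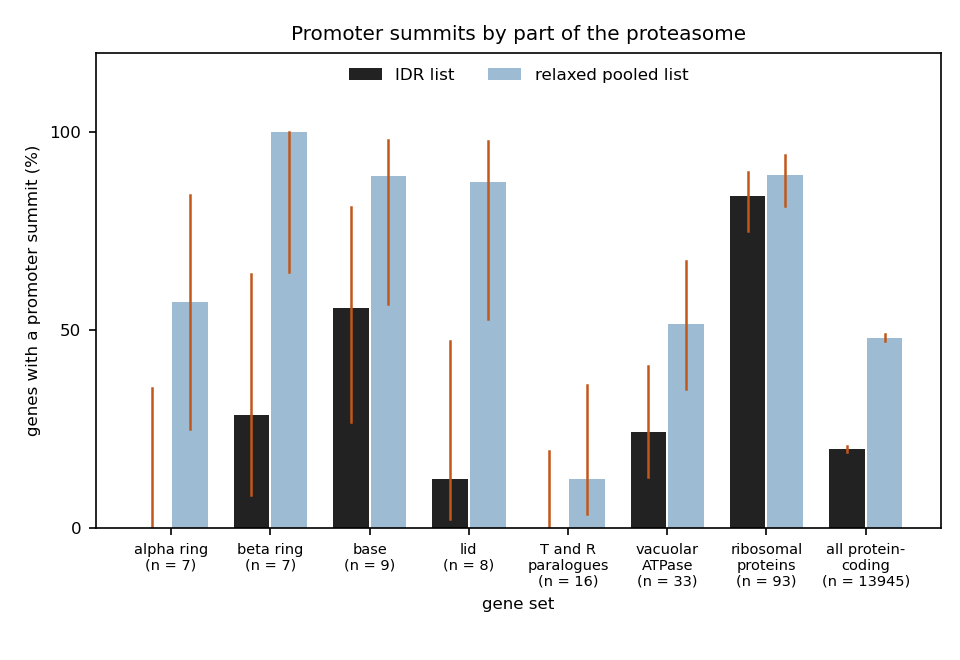
Share of genes with a promoter summit, in percent, in the IDR list (dark bars) and the relaxed pooled list (light bars), with 95% Wilson intervals as lines; Rpn10, which lies between base and lid, is left out. The base had IDR summits at 5 of 9, the highest share of the 4 subcomplexes, but in replicate 3 alone 2 of 9, where the beta ring had 2 of 7; and the paralogues had 0 of 16 in the IDR list and 2 of 16 in the relaxed pooled list.

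Within the core particle both genes with an IDR summit belonged to the beta ring, at 2 of 7 (28.6%), and the alpha ring had 0 of 7, which allows up to 35.4%. Prosbeta7, a beta subunit without a protease site, carried the strongest member peak, at chr3R:5357865-5358294 on dm6. Its signal was 210.8 in the pooled reads, rank 2569, with 109.8 in replicate 2 and 101.2 in replicate 3. The summit lay in the 5′ UTR, 95 bp downstream of the nearest Prosbeta7 start, and 49.4% of genes with an IDR promoter summit had a lower signal. Prosbeta5, which holds the chymotrypsin-like site, had a peak at chr2R:10819716-10820145 with a pooled signal of 172.4 at rank 3816. Replicate 2 gave 81.2, rank 4382 of its list, and replicate 3 gave 91.0, rank 4029, so the ranks were alike. The positions differed, 87 bp upstream of the start in replicate 2 and 7 bp upstream in replicate 3. The IDR summit lay 47 bp upstream of Prosbeta5 and also 47 bp from the start of dgo, so it cannot be assigned to 1 of these genes by distance.

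The regulatory particle held the other 6 genes, and 5 of these belonged to the base, at 5 of 9 (55.6%, 26.7 to 81.1%). This share rested on replicate 2: in as many of the strongest summits of replicate 3 alone the base had 2 of 9 (22.2%, Rpt5 and Rpt6), and in those of replicate 2 alone 5 of 9. Rpt5, an ATPase of the base, had a peak at chr3R:23752641-23753070 with a pooled signal of 198.6, rank 2886. Its signals were 102.4 in replicate 2 and 91.2 in replicate 3. The summit was 20 bp upstream of the Rpt5 start and 22 bp from that of RanBP3, too close together to set the genes apart. Rpt6, a second ATPase, had a pooled signal of 178.6 at chrX:21315977-21316406, with 90.9 in replicate 2 and 82.7 in replicate 3. This summit was in a coding exon 140 bp downstream of the start, and Rpt6 was the one gene with a start within 500 bp of it. Rpt3 had the weakest of the 8 peaks, 139.8 at chrX:11125117-11125546, rank 5465, with 71.2 and 71.0 in replicates 2 and 3; its summit was also in a coding exon, at 101 bp.

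Rpn1, the base scaffold that docks ubiquitin-like delivery factors, had a pooled signal of 145.4 at chr3L:19914890-19915319, in its 5′ UTR 54 bp downstream of the start. The replicates were further apart here than at Rpt3, with 80.2 in replicate 2, rank 4464, and 59.7 in replicate 3, rank 8150. Rpn13, the ubiquitin receptor that also recruits Uch-L5, had a pooled signal of 155.2 at chr2R:13960523-13960952, with 99.5 in replicate 2 and 68.5 in replicate 3. Its summit was 334 bp upstream of Rpn13 but 63 bp from the start of CtsL1, which encodes a cathepsin. Rpn9 was the 1 lid gene of 8 with an IDR summit, at a signal of 158.0, with 68.7 in replicate 2 and 80.9 in replicate 3. That summit was in the 5′ UTR of Rpn9, 121 bp downstream of the start, but 17 bp from the start of another protein-coding gene.

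Ranking each replicate alone and keeping its 5703 strongest summits gave 8 members in replicate 2 and 5 in replicate 3, a mean share of 13.5% ± 4.42 (SD, n = 2), where all protein-coding genes gave 19.8% ± 1.00. Prosbeta5, Prosbeta7, Rpt5 and Rpt6 were among them in both replicates. Prosbeta1, Rpn1, Rpn13 and Rpt3 were among them in replicate 2 alone, and Rpn9 in replicate 3 alone. The core particle had 3 and 2 genes, the regulatory particle 5 and 3, and the paralogues 0 and 0. The IDR list was made from the same reads, so these counts are not independent of it.

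**Figure D2:**
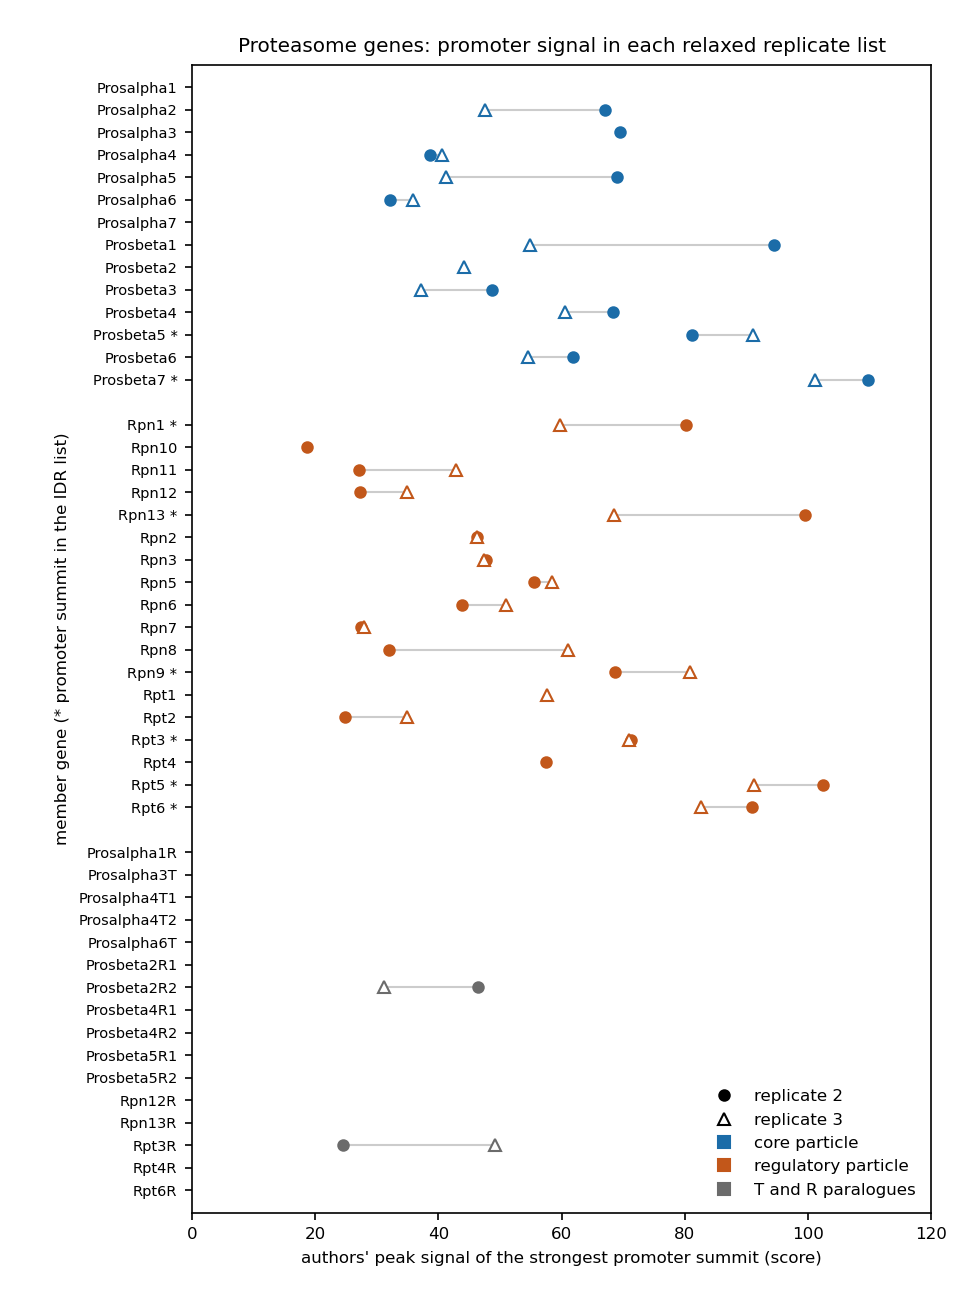
The authors' peak signal (a score) of the strongest promoter summit of each member in the relaxed lists of replicate 2 (filled circles) and replicate 3 (open triangles), with lines joining the replicates and an asterisk marking members with an IDR promoter summit. Prosbeta7 was the strongest member in both replicates, at 109.8 and 101.2, and 14 of the 16 paralogues have no point.

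In the relaxed lists the standard subunits and the paralogues parted. A relaxed pooled promoter summit was found at 29 of 48 members (60.4%), where 48.1% of all protein-coding genes had one. It was found at 27 of the 32 core and regulatory particle genes (84.4%, 68.2 to 93.1%) and at 2 of 16 paralogues (12.5%, 3.50 to 36.0%), intervals that lie above and below 48.1%. Replicate 2 alone gave 30 members against a background of 48.0%, and replicate 3 gave 29 against 49.1%. All 3 relaxed lists held a promoter summit at 24 of the 32 standard genes (75.0%) and at 42.3% of all protein-coding genes. These lists hold weak summits by design, per the notes deposited with them as peaks and background, so presence in them is a low bar.

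By subcomplex, the relaxed pooled list had summits at 7 of 7 beta ring genes, 8 of 9 base genes, 7 of 8 lid genes and 4 of 7 alpha ring genes. Among genes with such a summit, the part that also reached the IDR list was 5 of 8 in the base (62.5%), 2 of 7 in the beta ring (28.6%), 1 of 7 in the lid (14.3%) and 0 of 4 in the alpha ring, where it was 41.5% over all protein-coding genes. Cytoplasmic ribosomal protein genes, set beside them as another large complex, had IDR summits at 78 of 93 (83.9%) with a median signal of 408.5, and the vacuolar ATPase genes at 8 of 33 (24.2%) with a median of 181.2. Both sets were taken by symbol, with no paralogues set apart. In the IDR list the standard subunits had 8 of 32 (25.0%, 13.3 to 42.1%) and all 48 members 16.7%. In the relaxed pooled list the shares were 84.4% of standard subunits, 60.4% of all 48 members and 89.2% of ribosomal protein genes. The median pooled signal, however, was 114.1 in the core particle and 94.7 in the regulatory particle. It was 404.1 in ribosomal protein genes and 116.9 over all protein-coding genes.

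The members fell on both sides of the IDR threshold. Rpt3 at 139.8 was just inside, and Prosbeta1, the caspase-like protease subunit, was just outside at 135.8, rank 5732. Prosbeta1 had 94.4 in replicate 2 and 54.8 in replicate 3, so it was stronger than 5 of the 8 members inside the threshold in replicate 2 and weaker than all 8 of them in replicate 3. Its replicate summits were at different positions, 50 bp downstream of the start in replicate 2 and 72 bp upstream in replicate 3. Those of the 8 were matched to their IDR summit within 100 bp, and those of Prosbeta5 lay 40 bp to either side of it. Prosbeta4, a beta subunit without a protease site, followed at 125.6, with 68.4 and 60.6 in replicates 2 and 3. Prosbeta6, likewise without a protease site, had 119.7, with 61.8 and 54.5. Prosalpha2, the highest of the alpha ring, had 114.1, with 67.0 and 47.6. These 4 genes also had the highest −log10 q-value in the pooled list, 4.18, a ceiling shared by 7576 pooled summits.

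Below them, ranks 5704 to 10000 also held the lid genes Rpn5 (110.2), Rpn8 (94.7) and Rpn6 (94.7) and the alpha ring gene Prosalpha5, with 69.0 in replicate 2 and 41.3 in replicate 3. Most of the 29 lay in the middle ranks, with 8 (27.6%) at ranks 5704 to 10000 and 12 (41.4%) at 10001 to 20000, where all genes with a relaxed pooled promoter summit had 21.2% and 25.7%. At both ends the shares were lower, with 27.6% of members and 41.5% of all genes at ranks 1 to 5703, and 3.45% and 11.5% at ranks 20001 to 30000. Those at 10001 to 20000 included Rpn2, the base scaffold partner of Rpn1, at 80.4 and Rpn11, the lid deubiquitinase, at 61.3. Prosbeta2, the trypsin-like subunit, had 57.7 and a promoter summit in replicate 3 (44.2) but not in replicate 2. The remaining standard genes at ranks 10001 to 20000 were Rpn3 (72.7), Rpn7 (54.9), Rpt2 (54.8), Rpt4 (66.6), Prosalpha4 (79.5), Prosalpha6 (70.1) and Prosbeta3 (63.9). Of these, Rpt4 had no promoter summit in replicate 3. The ubiquitin receptor Rpn10 was lowest of the 29 at 41.8, rank 24332, with 18.6 in replicate 2 and no promoter summit in replicate 3.

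**Figure D3:**
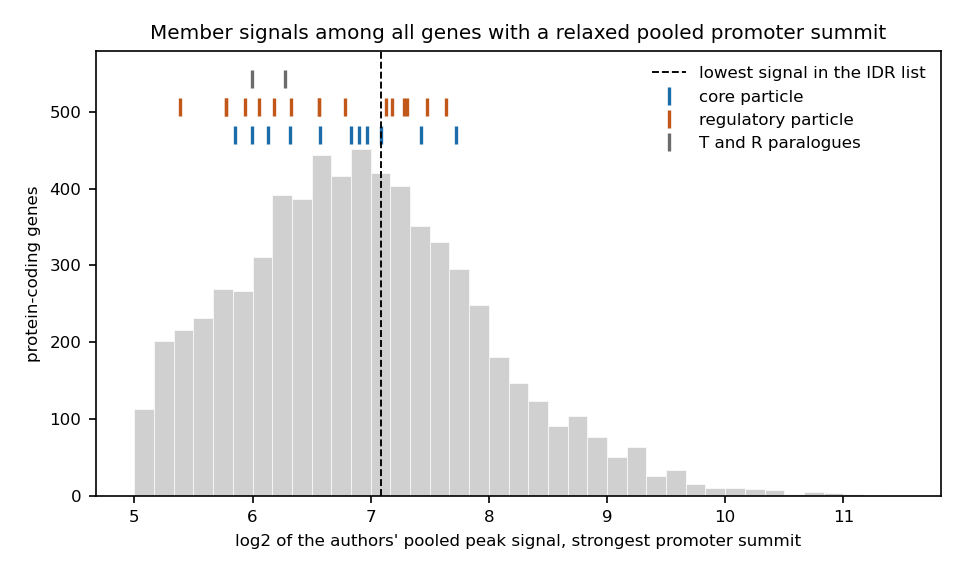
Histogram of log2 of the authors' pooled peak signal at the strongest promoter summit of the 6712 protein-coding genes with a relaxed pooled summit; coloured ticks are members and the dashed line is the lowest signal in the IDR list, 136.3. The 8 members right of the line end at 210.8, while the histogram goes on to 2488.

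Of the 32 standard genes, 5 lacked a relaxed pooled promoter summit. Prosalpha3 had one in replicate 2 alone (69.4, at 168 bp) and Rpt1, an ATPase of the base, in replicate 3 alone (57.7, at 195 bp). Rpn12, a lid gene, had one in each replicate, 27.2 and 34.9, but none in the pooled list. These lay at different positions, 131 bp downstream of the start in replicate 2 and 136 bp upstream in replicate 3. Prosalpha7 and Prosalpha1 had none in any list, with nearest pooled summits at 699 and 3214 bp. Around the start of Prosalpha1 and of its neighbour Prosalpha1R, 952 of 952 words of 50 bases within 500 bp occurred more than once in the genome, so reads of that length cannot be placed there uniquely. How the authors treated such reads is not given in the sources used here, and its part in the missing summits was not tested. The other members had no such words, except Prosalpha3 with 3.26% and Rpn3 with 6.93%.

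The paralogues had few summits near them in every list. In addition to the 0 of 16 in the IDR list, 14 of 16 had no promoter summit in any relaxed list (87.5%), where this held for 45.6% of all protein-coding genes. Their median distance to the nearest IDR summit was 24328 bp, where it was 4392 bp for the standard subunits and 7286 bp for all protein-coding genes. The alpha paralogues Prosalpha3T, Prosalpha4T1, Prosalpha4T2 and Prosalpha6T had their nearest relaxed pooled summits at 51845, 13800, 12312 and 16006 bp. Distances for Prosalpha1R, Prosbeta2R1, Prosbeta4R1, Prosbeta4R2, Prosbeta5R1, Prosbeta5R2, Rpn12R, Rpn13R, Rpt4R and Rpt6R ran from 2486 bp (Rpn13R) to 60515 bp (Rpt4R).

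Only Prosbeta2R2 and Rpt3R of the paralogues had relaxed promoter summits. Prosbeta2R2 had a pooled signal of 63.7, with 46.4 in replicate 2 and 31.2 in replicate 3, and Rpt3R had 77.4, with 24.5 and 49.2. Both pooled summits lay nearer to another gene: 117 bp from CG1116 against 246 bp from Prosbeta2R2, and 99 bp from Alg12 against 118 bp from Rpt3R. The replicate 2 summit of Prosbeta2R2 was a different one, 102 bp downstream of its start. With each summit given to the nearest start, 0 of these 2 paralogues and 24 of the 27 standard genes with a pooled promoter summit kept their strongest one. The strongest pooled summit of Rpn5, for example, lay 259 bp from Rpn5 and 150 bp from Hat1. Another, weaker pooled summit lay 49 bp from the Rpn5 start. Gene spacing differed as well: a start of another protein-coding gene lay within 500 bp of 3 of 16 paralogues and of 21 of 32 standard genes. Among all protein-coding genes an IDR promoter summit was found at 28.9% of those with such a neighbour and at 16.0% of those without, while among standard subunits it was 5 of 21 and 3 of 11. The part of spacing in the contrast between paralogues and standard subunits was not tested.

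The strongest pooled summits of the members lay mostly at or after the start. Of 29 members, 21 had it downstream or at the start and 8 upstream, with a median offset of 83.0 bp into the gene. Over all 6712 genes 3138 had it downstream or at the start, with a median of -13.5 bp. The comparison sets leaned downstream as well, with 55 of 83 ribosomal protein genes (median 16.0 bp) and 12 of 17 vacuolar ATPase genes (42.0 bp). The distance without its sign had a median of 118 bp for members and 128 bp for all 6712 genes, and 41.4% and 41.0% lay within 100 bp. Beta ring genes had 6 of 7 downstream, from Prosbeta1 at 58 bp to Prosbeta3 at 427 bp, and Prosbeta5 alone upstream. Those of the base were split, with 3 of 8 upstream.

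**Figure D4:**
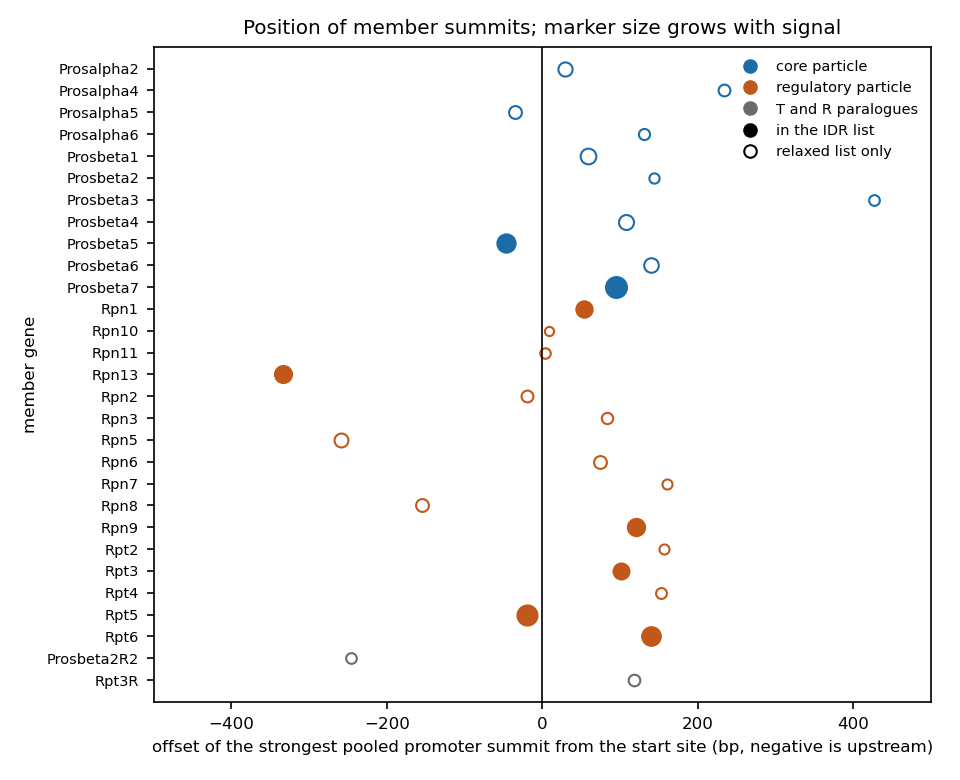
Offset in bp of the strongest pooled promoter summit from the nearest start site of each of the 29 members that have one, with negative values upstream; filled markers are members of the IDR list and marker size grows with signal. Most markers, 21 of 29, sit at or right of the start, and the summit of Rpn13 is the farthest upstream at -334 bp.

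The reference sequence next to the starts was read to show what these promoters share. From 250 bases before to 50 bases after the outermost start, 6 motifs were searched on both strands. The DNA replication-related element TATCGATA, the site of the factor DREF, was found in 12 of 32 standard promoters (37.5%), in 0 of 16 paralogue promoters and in 9.36% of all protein-coding promoters. Its share was 37.5% in the 8 members with an IDR summit (Rpn13, Rpn9 and Rpt5) and 37.5% in the 24 standard genes without one, where it was 12.5% over all genes with an IDR promoter summit. The 9 without a summit were Prosalpha3, Prosalpha5, Prosalpha6, Prosbeta1, Prosbeta2, Prosbeta6, Rpn12, Rpn3 and Rpn7. The stretches just upstream of the outermost start are shown 5′ to 3′ on the gene's strand, from the Release 6 genome (dm6), for 5 members with an IDR summit, 3 standard genes that hold the element without one, and 2 paralogues. Capitals mark a match to any of the 6 motifs. The stretches of Prosbeta7 and Rpt3 lie outside their IDR peaks, whose summits were nearest to an inner start. For Prosbeta7 the whole window searched for motifs lies outside the peak.
Prosbeta7: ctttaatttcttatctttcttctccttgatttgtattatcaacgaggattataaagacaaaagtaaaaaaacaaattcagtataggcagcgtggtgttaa
Rpn1: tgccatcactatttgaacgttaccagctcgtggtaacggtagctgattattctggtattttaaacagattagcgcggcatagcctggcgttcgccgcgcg
Rpt3: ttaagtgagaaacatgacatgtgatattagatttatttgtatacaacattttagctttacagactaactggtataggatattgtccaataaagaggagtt
Rpt5: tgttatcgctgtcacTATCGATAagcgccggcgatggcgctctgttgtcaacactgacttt
Rpt6: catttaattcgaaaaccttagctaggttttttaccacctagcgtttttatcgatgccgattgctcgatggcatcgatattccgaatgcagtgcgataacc
Prosalpha6: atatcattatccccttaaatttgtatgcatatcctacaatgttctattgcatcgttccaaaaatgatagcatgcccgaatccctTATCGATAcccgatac
Prosbeta2: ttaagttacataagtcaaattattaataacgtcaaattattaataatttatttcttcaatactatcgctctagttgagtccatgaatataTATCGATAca
Prosbeta6: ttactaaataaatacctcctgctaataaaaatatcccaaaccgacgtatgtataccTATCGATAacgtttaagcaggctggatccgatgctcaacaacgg
Prosbeta2R1: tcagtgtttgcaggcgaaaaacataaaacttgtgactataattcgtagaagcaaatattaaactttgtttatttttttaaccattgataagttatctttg
Rpt6R: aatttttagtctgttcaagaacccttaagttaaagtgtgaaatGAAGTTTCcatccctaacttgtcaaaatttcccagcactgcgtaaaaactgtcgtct
In the Rpt5 stretch, at chr3R:23752815-23752875, the element began 46 bases before the start, and the IDR summit, 20 bp upstream, fell in the same stretch. Rpt5 was the 1 member of 8 with TATCGATA within the 101 bp centred on its IDR summit, a window that held it in 0.988% of 2732 promoter summits. Prosalpha6 (chr2L:10221251-10221350), Prosbeta2 (chr3L:14999851-14999950) and Prosbeta6 (chr3L:16610419-16610518, minus strand) held the element 16, 10 and 44 bases before the start. The stretches of Prosbeta7 (chr3R:5358365-5358464, minus strand), Rpn1 (chr3L:19914951-19915050), Rpt3 (chrX:11125001-11125100), Rpt6 (chrX:21315952-21316051) and Prosbeta2R1 (chrX:5808854-5808953) held none of the 6 motifs whole, and that of Rpt6R (chr3R:30583698-30583797, minus strand) held GAANNTTC. A match is a description of the letters and not a site of binding.

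The other motifs were less frequent. GAGAGAG, bound by the GAGA factor, was in 0 of 32 standard promoters, in the paralogues Prosbeta2R2 and Rpt4R, and in 5.87% of all. TGACNNNGC, the core of the antioxidant response element bound by Cnc with Maf-S, was in 5 of 32 (15.6%; Prosalpha2, Prosbeta3, Rpn1, Rpn7 and Rpt6), in Prosbeta4R2 and in 8.63% of all. GGTCACAC, the core of promoter motif 1, was in 5 of 32 (Prosalpha2, Prosalpha4, Prosbeta3, Rpn1 and Rpn7), in 0 of 16 paralogues and in 7.70% of all. In Rpn1 and Prosbeta3 it overlapped a TGACNNNGC match on the opposite strand, so these are not separate stretches. The heat shock pair GAANNTTC was in Rpn6 and Rpt6R and in 9.37% of all, and the E-box CACGTG was in none of the 48 and in 4.20% of all. Apart from TATCGATA at Rpt5, no motif of the 6 lay in the 101 bp around any of the 8 member summits. The median GC content was 33.5% in the standard promoters, 32.7% in those of the paralogues and 38.0% over all.

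Paralogue promoters were aligned end to end, with gaps, to those of their standard subunit. Identity between unrelated promoters was not computed, so the values have no background beside them. Identity over the aligned window ran from 40.5% for Prosbeta4R2 against Prosbeta4 to 51.4% for Prosbeta2R1 against Prosbeta2, except for Prosalpha1R, which was 89.3% identical to Prosalpha1 over 317 aligned columns.

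Other genes of the pathway were taken from a list of 29 symbols, of which 28 were found. An IDR promoter summit lay at 9 of the 28 (32.1%) and a relaxed pooled one at 25 (89.3%), against 20.0% and 48.1% of all protein-coding genes. No interval is given for these shares. With each summit given to the nearest gene only, 4 of the 28 (14.3%) kept an IDR promoter summit, where all protein-coding genes had 16.4%. Those 4 were cnc, Keap1, RpL40 and Ubi-p63E. Among the regulators, 2 of 7 had an IDR promoter summit. The transcription factor gene cnc, whose mammalian relative Nrf1 activates proteasome genes, had 3 IDR promoter summits with a strongest signal of 312.7, and 160.0 and 158.9 in replicates 2 and 3. Keap1, which encodes the inhibitor of Cnc, had 2 such summits, the strongest at 292.6, with 158.4 and 128.8. That summit lay 438 bp downstream of the nearest Keap1 start, and the weaker one lay 220 bp from a start. The strongest signals of cnc and Keap1 were above that of the strongest subunit gene, Prosbeta7 at 210.8. With 1 start per gene, the outermost, cnc had no promoter summit and the pathway count was 7, since its summits lay at inner starts. No promoter summit in the IDR list was found at maf-S, the partner of Cnc, or at Pngl, rngo, sip3 and TER94, whose mammalian relatives process or turn over Nrf1.

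Among the assembly factors, caps and partners, 3 of 11 had an IDR promoter summit, each shared with another gene. With each summit given to the nearest gene only, none of these 3 kept it. Uch-L5, the deubiquitinase that docks on Rpn13, had 273.7 (154.2 and 125.1 in replicates 2 and 3), shared with Jarid2. CG12321 had 176.9 at a promoter shared with MED17, with 53.0 in replicate 2 (rank 8702) and 123.1 in replicate 3 (rank 2240), so the replicates placed it far apart. CG9588 had 141.3, with 77.3 and 60.5, shared with Lkb1. The chaperone gene Pomp, PI31, ntc, REG, Sem1, Usp14, CG12096 and CG11885 had none. All 11 had a relaxed pooled promoter summit.

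Of the genes for ubiquitin supply and delivery 4 of 10 had an IDR promoter summit. With the nearest gene only, RpL40 and Ubi-p63E kept theirs, and RpS27A and Ubqn did not. RpS27A and RpL40, which encode ubiquitin fused to a ribosomal protein, had 346.5 and 188.5, and both also belong to the ribosomal protein genes above. RpS27A had 131.7 in replicate 2 and 215.8 in replicate 3, and its summit was shared with Ip259. RpL40 had 78.5 and 108.9. The polyubiquitin gene Ubi-p63E had 166.7, with 104.0 and 85.3, near the median of the subunit genes, and like cnc it had no promoter summit with 1 start per gene. Ubqn, a ubiquitin shuttle factor, had 136.7 from a summit 394 bp upstream that was shared with dome, and its ranks were also far apart, 13715 in replicate 2 (37.0) and 3101 in replicate 3 (104.7). Ubi-p5E, Ufd1 and p47 had relaxed summits only, and Uba1, the ubiquitin-activating enzyme, Rad23 and Npl4 had no pooled promoter summit.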

How the data were processed

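Peak lists of 2 ChIP-seq libraries were used, in build dm6; the dm3 lists were not used. Per the notes deposited with the files, the authors called each relaxed list against a control alignment and derived the IDR list from the 3 relaxed lists; for the aligner, the caller and the IDR cut-off, names and settings are not given in the sources used. The authors' deposited signal is a score of unstated scale, which ranked peaks inside 1 list only. In the IDR list the authors' −log10 q-value was at its ceiling of 4.18 for every peak. Depth is unknown, so no precision can be drawn from it.

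Summits were assigned to protein-coding genes of Ensembl release 115 on X, 2L, 2R, 3L, 3R and 4, with coordinates counted from 1. A replicate summit was matched within 100 bp of the IDR summit. For members without an IDR promoter summit, the strongest promoter summit of each list was given, without matching of positions. Sequences came from the Release 6 genome. Python 3.11.15, pandas 2.3.3, scipy 1.17.1 and Biopython 1.88 were used, and the assignment was checked on simulated summits. With 1 group no test was made. Members, subcomplexes, the pathway list and the motifs were chosen with earlier results of these data known. Named are all members, all pathway genes on the list, genes that share an IDR summit with a member or a pathway gene, except 1 that is not reported here, and, chosen after their values were seen, CG1116, Alg12 and Hat1, which lie nearer than the member to its strongest relaxed summit. Alternatives were promoter windows of 250 and 1000 bp, other peak thresholds, each replicate alone, 1 start per gene, the nearest gene and overlap of the peak interval. The symbol Ecm29 was not matched, and Ufd1-like matched Ufd1.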

Additional observations from a re-analysis of the deposited data

How the results depend on the processing

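The count of members with a promoter summit was 8, and between 6 and 8 with windows of 250 and 1000 bp, 1 start per gene, the nearest gene only or the peak interval. The stronger part of the IDR list (2851 summits) left 1 member, 1 core and 0 regulatory genes, 1553 of all genes and 4 pathway genes, with a median signal of 210.8. The relaxed pooled list gave 29 members, 11 core genes, 16 regulatory genes, 2 paralogues, 6712 of all genes and 25 pathway genes. Leaving out a replicate gave 5 to 8 members and 3 to 5 regulatory genes; the 5 and 3 were without replicate 2, which lost Rpn1, Rpn13 and Rpt3. The median signal was then 91.0 to 92.6, on the replicates' own scales. With the nearest gene only the pathway count was 4 of 28 (14.3%), where all protein-coding genes had 16.4%. The median signal was then 175.5, and with 250 bp it was 172.4. By construction these settings drop summits far from a member's start or nearer to another gene. With 1 start per gene the pathway list lost cnc and Ubi-p63E (7 of 28). The paralogues stayed at 0 in each of these alternatives except the relaxed pooled list. No paired analysis was possible because both replicates belong to 1 group. Unknown depth and the absence of control libraries here limit what a missing summit can show: it was not in the list, and binding was not measured as absent.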
